A study of Mus musculus with 12 samples.

Results

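The genes described here are the replication-dependent core histone genes and the linker histone genes of the mouse. They were chosen by symbol, as the probes whose gene symbol starts with H1f, H2ac, H2bc, H3c or H4c and a number, and 57 of 19505 named genes qualified, each with 1 probe. They comprise 8 linker histones (H1), 13 H2A, 15 H2B, 10 H3 and 11 H4 genes. The family was selected on these same 12 arrays because its signal differed between them, so the pattern over the arrays is a description and carries no test.

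The study compared primary cultures of mouse trigeminal ganglion (TG) neurons, which carry sensation from the face and mouth, plated on laminin and transfected with scramble miRNAs, miR-21, miR-34a or miR-324. Each of the 4 groups has 3 arrays, hybridised with labelled cDNA from total RNA on the Clariom S Mouse platform. Genotype, strain, age and time after transfection, and the arm of miR-324, are not given in the sources used here. The titles of scramble 1 and 2 and of miR-34a 1 and 2 end in one suffix (suffix A here). Those of scramble 3 and miR-324 2 end in a different one (suffix B), and 6 arrays have none. What the suffixes mean is not stated. Values are log2 signals, so a difference of 1 is a 2-fold difference. A level is comparable between arrays for one probe but not between probes, and array data have no read depth, so the number of arrays limits the precision.

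Replication-dependent histone genes supply the core histones that package newly made DNA, and their mRNAs normally accumulate only during S phase. These mRNAs end in a stem-loop instead of a poly(A) tail. The stem-loop is bound by SLBP, and transcription of the genes depends on the coactivator NPAT. The genes lie in clusters, and H2A and H2B genes often stand head to head with a shared promoter region. Linker histones bind the DNA between nucleosomes. Some are made with replication, H1f10 is made outside S phase, and H1f6, H1f7 and H1f8 belong to germ cells, as do the core histone genes H2ac1 and H2bc1. Mature neurons do not divide, whereas glia, fibroblasts, endothelial cells and macrophages of a culture can. Mki67 encodes the Ki-67 antigen of dividing cells. How the cDNA was primed is not given in the sources used here, and the part that mRNAs without a poly(A) tail have in these signals was not tested.

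RefSeq start regions of GRCm38.p6, from 250 bases before to 50 bases after the start, were available for 52 of the 57 genes. The last 200 bases before the start are shown for 6 genes, because they differ in both their motifs and their pattern over the arrays. They are H1f1 (chr13:23763468-23763667, plus strand), H1f2 (chr13:23738607-23738806, plus strand), H2ac6 (chr13:23683960-23684159, minus strand), H2bc3 (chr13:23746534-23746733, plus strand), H3c6 (chr13:23562386-23562585, minus strand) and H4c4 (chr13:23581368-23581567, plus strand). Each is written 5′ to 3′ along its gene, and capitals mark the CCAAT box, the TATA box letters TATAAA, the octamer ATTTGCAT and the H1 box letters AAACACA on either strand.
H1f1: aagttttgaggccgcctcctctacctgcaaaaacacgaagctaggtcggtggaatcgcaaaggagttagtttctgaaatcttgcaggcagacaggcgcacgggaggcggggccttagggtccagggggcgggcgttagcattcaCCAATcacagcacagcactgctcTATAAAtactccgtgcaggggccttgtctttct
H1f2: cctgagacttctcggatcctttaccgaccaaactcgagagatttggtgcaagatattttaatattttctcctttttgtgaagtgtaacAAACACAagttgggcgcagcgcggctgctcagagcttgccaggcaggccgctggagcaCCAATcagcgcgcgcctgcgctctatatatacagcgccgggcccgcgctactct
H2ac6: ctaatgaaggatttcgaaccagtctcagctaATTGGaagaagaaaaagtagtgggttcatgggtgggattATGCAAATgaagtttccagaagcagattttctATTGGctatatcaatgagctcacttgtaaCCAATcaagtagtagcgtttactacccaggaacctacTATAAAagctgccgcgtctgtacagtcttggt
H2bc3: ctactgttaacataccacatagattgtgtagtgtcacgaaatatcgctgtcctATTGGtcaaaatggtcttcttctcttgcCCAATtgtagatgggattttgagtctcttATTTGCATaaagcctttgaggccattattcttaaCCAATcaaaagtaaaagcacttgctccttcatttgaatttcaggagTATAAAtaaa
H3c6: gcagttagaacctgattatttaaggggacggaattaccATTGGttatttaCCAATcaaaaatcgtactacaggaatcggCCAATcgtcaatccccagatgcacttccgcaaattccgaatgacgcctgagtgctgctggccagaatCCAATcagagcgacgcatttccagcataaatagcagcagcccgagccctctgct
H4c4: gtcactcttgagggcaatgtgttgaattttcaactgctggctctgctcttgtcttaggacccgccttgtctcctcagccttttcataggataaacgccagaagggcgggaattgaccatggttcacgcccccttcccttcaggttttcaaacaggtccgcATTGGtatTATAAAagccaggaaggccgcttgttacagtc

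The CCAAT letters stood in the 300-base start region of 43 of the 52 genes (82.7%), against 37.9% of 27025 mouse start regions of the same length. All 13 H2A, all 13 H2B and all 8 H3 regions held them, against 6 of 8 H1 and 3 of 10 H4 regions. TATAAA was in 28 of 52 (53.8%, against 14.2% of all regions). The octamer was in 6 of 13 H2A and 6 of 13 H2B regions and in 0 of the H1, H3 and H4 regions, against 1.75% of all regions. The H1 box was in 4 of 8 H1 regions and 8 of 52 in all (15.4%, against 7.14%). Windows of head-to-head H2A and H2B genes overlap and so share letters. The octamer was present in 10 of 41 genes that followed Mki67 over the arrays in the sense given next and in 2 of the 11 that did not, H2ac6 being one of the latter. A match describes letters only.

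The arrays fell into separate ranges of Mki67 signal, across the label groups. Mki67 was 10.93, 10.49 and 7.02 for scramble 1, 2 and 3, 12.53, 12.28 and 12.63 for miR-21 1, 2 and 3, 11.04, 10.62 and 6.47 for miR-34a 1, 2 and 3, and 8.14, 8.34 and 8.78 for miR-324 1, 2 and 4. Thus 7 arrays, the 4 with suffix A and the 3 of miR-21, lay between 10.49 and 12.63, and 5, including both suffix B arrays, lay between 6.47 and 8.78. Scramble 3 and miR-34a 3 stood apart from the other 2 arrays of their groups. No correlation with Mki67 is given, because the arrays form separate clusters. The 7 and 5 arrays are not groups of the study.

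Some cell type markers separated the same arrays, mainly those of satellite glia, in this order, and those of endothelial cells, in the reverse order. All 6 neuron markers were above 5.33, the 95th percentile of 1414 olfactory and vomeronasal receptor probes taken as the array floor, on every array, with a median signal of 10.17 to 14.59, and 1 of 6 separated the arrays. The endothelial markers Cdh5, Pecam1, Cldn5 and Tek, 4 of 5 measured, were lower on all 7 arrays of the higher Mki67 range, where the summed signal of the 5 was 13.01 to 13.75 against 16.08 to 17.67. Satellite glia markers were higher there in 3 of 4 genes (summed 14.41 to 15.19 against 11.89 to 14.14), and macrophage markers in 2 of 5 (7.80 to 10.79 against 6.77 to 7.18). Of the satellite glia markers, Apoe separated by only 0.07, and Sox10 overlapped, with 12.77 to 14.67 against 11.44 to 14.06. Fibroblast markers were higher in 2 of 4 (15.51 to 16.08 against 13.28 to 17.12), and Schwann cell markers in 1 of 3 (16.08 to 17.20 against 14.77 to 15.98). Each sum adds unlogged signals, so its brightest gene dominates it. For Schwann cells this was Pmp22 (14.28 to 16.93), the marker that separated, while Mbp and Cldn19 overlapped. For satellite glia it was Apoe on the suffix A arrays and Sox10 on all others. The pituitary hormone Prl had a signal of 14.92 in scramble 3 and of 14.26 to 15.17 in miR-324, against 3.37 to 4.83 on the other 8 arrays, and 0 of 3 pituitary markers separated the arrays. The part of these cell types in the histone signal was not tested, and in a culture fewer dividing cells cannot be told apart from less histone mRNA per cell.

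Most of the histone genes had the order of Mki67. In 43 of 57, all 7 arrays of the higher Mki67 range lay above all 5 of the lower, which held for 3.78% of all 19572 named probes. In 0 of 57 did the 7 lie below the 5, against 2.53% of all probes. The 43 were 11 of 13 H2A, 12 of 15 H2B, 9 of 10 H3, 8 of 11 H4 and 3 of 8 H1 genes. By cluster they were 36 of 46 genes on chromosome 13 and 6 of 8 on chromosome 3. The gap between the lowest of the 7 and the highest of the 5 had a median of 1.51 over the 43. Just inside were H1f5 with a gap of 0.01 and H2bc23 with 0.02, and just outside was H4c12, whose ranges overlapped by 0.03. Genes with nearly the same sequence may share probe signal. H3c14 and H3c15 had the same value on every array and so are 1 measurement, but both are included in all counts and medians here. H3c11 exceeded H3c10 by 0.35 to 0.48 throughout.

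**Figure D1:**
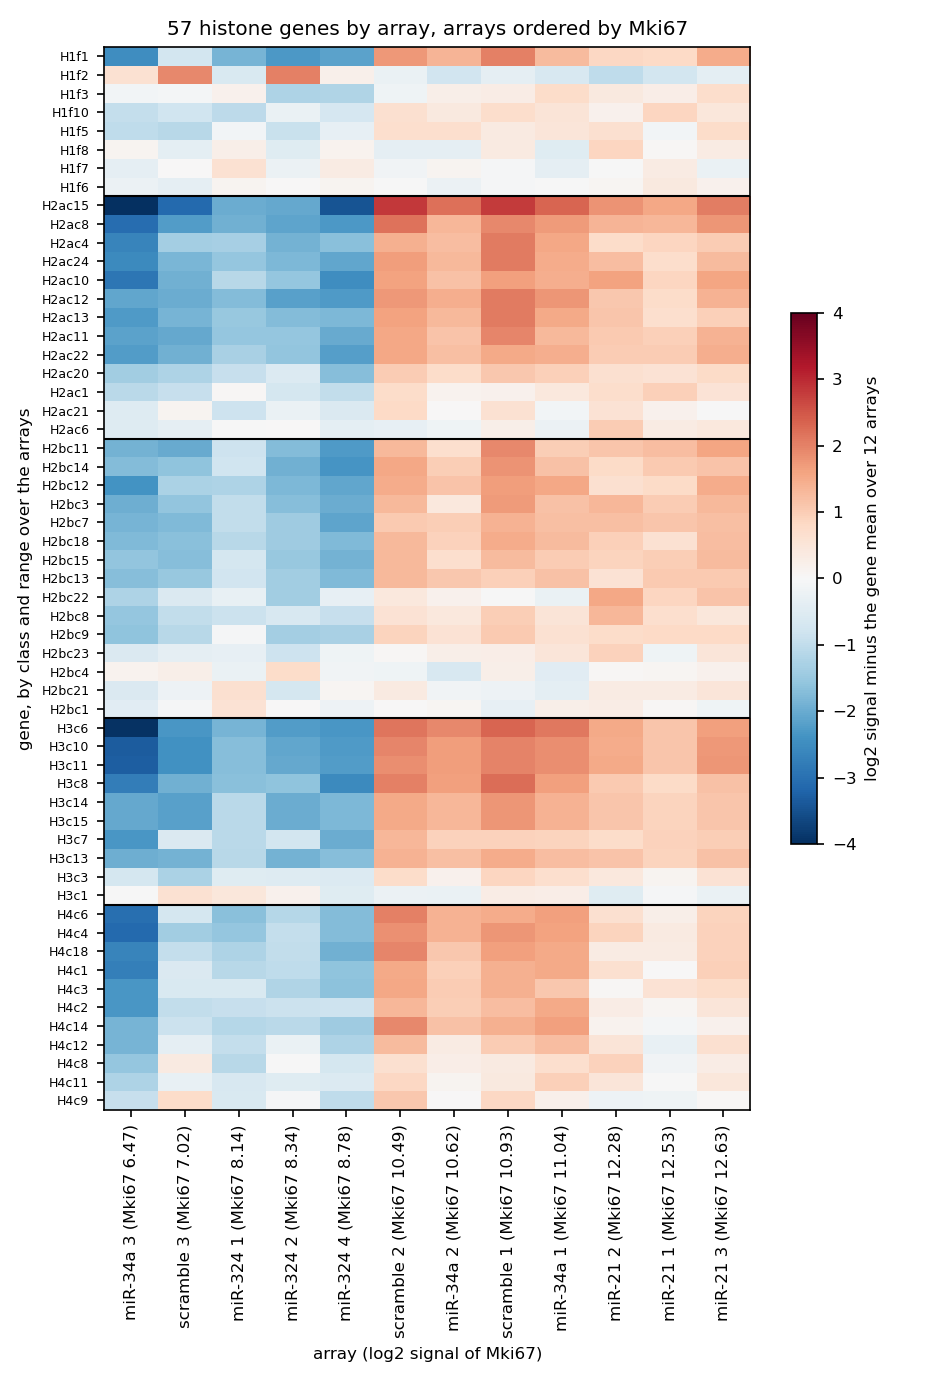
Log2 signal of each of the 57 histone genes (rows, grouped by class and sorted by range) minus its mean over 12 arrays, with the arrays (columns) ordered by their Mki67 signal and colours ending at 4 in either direction. The 5 left columns are mostly blue and the 7 right columns mostly red, apart from the lowest rows of each class and H1f2.

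Among H2A genes, which encode a core histone that pairs with H2B, H2ac22 was 14.40, 14.41 and 10.96 for scramble 1, 2 and 3, 13.89, 13.90 and 14.33 for miR-21, 14.33, 14.07 and 10.65 for miR-34a, and 11.57, 11.29 and 10.68 for miR-324. Scramble 3 and miR-34a 3 lay with the miR-324 arrays, and the gap between the ranges was 2.32. H2ac13 and H2ac24 followed the same order, with signals of 10.53 to 14.87 and 9.69 to 14.33. H2ac15 had the widest span of the family, with 14.14, 14.17 and 8.25 for scramble, 12.90, 13.16 and 13.41 for miR-21, 13.67, 13.56 and 6.38 for miR-34a, and 9.36, 9.30 and 7.91 for miR-324. Its gap of 3.54 was the largest of the 57, followed by H2ac8 with 3.24. H2ac6 did not follow the order, with 8.83, 8.29 and 8.26 for scramble, 8.92, 9.63 and 9.02 for miR-21, 8.36, 8.44 and 8.10 for miR-34a, and 8.59, 8.61 and 8.20 for miR-324. The miR-21 arrays were its highest, and the other groups overlapped. H2ac21 overlapped as well, and H2ac1, the testis H2A gene, separated by 0.09.

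Among H2B genes, H2bc7 was 11.80, 11.48 and 8.64 for scramble, 11.54, 11.61 and 11.62 for miR-21, 11.63, 11.41 and 8.57 for miR-34a, and 9.42, 8.99 and 8.31 for miR-324. The 7 higher arrays differed by at most 0.39, and the 5 lower by 1.11. H2bc18 ran in parallel, between 8.11 and 11.36. H2bc4, the H2B gene with the highest mean signal, spanned 11.78 to 13.16. It was 12.66, 12.23 and 12.65 for scramble, 12.51, 12.46 and 12.60 for miR-21, 11.95, 11.78 and 12.56 for miR-34a, and 12.15, 13.16 and 12.29 for miR-324. Its lowest values were on miR-34a arrays of the higher Mki67 range and its highest on miR-324 2, and the groups overlapped. H2bc4 is the head-to-head neighbour of H2ac6. Of 10 pairs of adjacent H2A and H2B genes, both separated in 7, neither in 1 (H2ac6 and H2bc4) and 1 gene in 2 (H2ac1 with H2bc1, and H2ac20 with H2bc21). H2bc21, which encodes the H2B variant known from olfactory neurons, stayed between 4.38 and 5.71, and the testis gene H2bc1 between 4.60 and 5.66.

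Among H3 genes, H3c13 was 14.48, 14.41 and 11.11 for scramble, 13.90, 14.16 and 14.19 for miR-21, 14.23, 14.22 and 11.04 for miR-34a, and 11.91, 11.10 and 11.30 for miR-324. No array of the lower Mki67 range came within 1.99 of the higher. H3c14 and H3c15 together spanned 10.77 to 14.69. H3c6, whose 4 CCAAT matches are shown above, had the widest gap of its class at 2.96. It was 12.93, 12.74 and 8.27 for scramble, 11.72, 12.13 and 12.26 for miR-21, 12.71, 12.53 and 6.65 for miR-34a, and 8.76, 8.38 and 8.28 for miR-324. The H3 gene that overlapped was H3c1. Its highest array lay below the floor level of 5.33, as did those of H1f6 and H1f8.

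The H4 genes also separated, but with smaller gaps, of which the largest was 1.31. H4c1 was 14.21, 14.30 and 12.20 for scramble, 12.78, 13.42 and 13.72 for miR-21, 14.30, 13.74 and 10.03 for miR-34a, and 11.68, 11.75 and 11.17 for miR-324. H4c11 spanned 11.69 to 13.87, and its gap was 0.31. H4c14 was 13.49, 14.00 and 11.22 for scramble, 11.99, 12.21 and 12.25 for miR-21, 13.73, 13.24 and 10.21 for miR-34a, and 10.95, 11.01 and 10.65 for miR-324. Here the miR-21 arrays formed an intermediate level, below suffix A and above the lower range. H4c9 had another order, with 9.21, 9.47 and 9.13 for scramble, 8.22, 8.19 and 8.44 for miR-21, 8.57, 8.41 and 7.47 for miR-34a, and 7.77, 8.32 and 7.38 for miR-324. All 3 scramble arrays, including scramble 3, lay above the other 9. H4c12 and H4c8 overlapped as well.

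The linker histones did not move as one group. H1f1 was 8.97, 8.70 and 6.24 for scramble, 7.75, 7.80 and 8.45 for miR-21, 8.24, 8.33 and 4.49 for miR-34a, and 5.12, 4.66 and 4.82 for miR-324, with a gap of 1.51. Its lowest values were under the floor level of 5.33, where arrays understate differences. H1f5 ranged from 4.88 to 6.72 and the replication-independent H1f10 from 4.97 to 6.87, with gaps of 0.01 and 0.44. H1f2 had almost the reverse order, with 9.17, 9.27 and 11.47 for scramble, 8.82, 8.53 and 9.15 for miR-21, 8.89, 8.79 and 10.16 for miR-34a, and 8.94, 11.55 and 9.75 for miR-324. Its highest values were those of the suffix B arrays, and miR-324 1 lay among the 7 arrays of the higher Mki67 range. H1f3 was 6.43 to 6.88 in scramble, 6.86 to 7.28 in miR-21, 6.48 to 7.34 in miR-34a and 5.36 to 6.77 in miR-324, and its ranges overlapped. Among the germ cell genes, H1f7 stayed between 4.57 and 5.56.

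**Figure D2:**
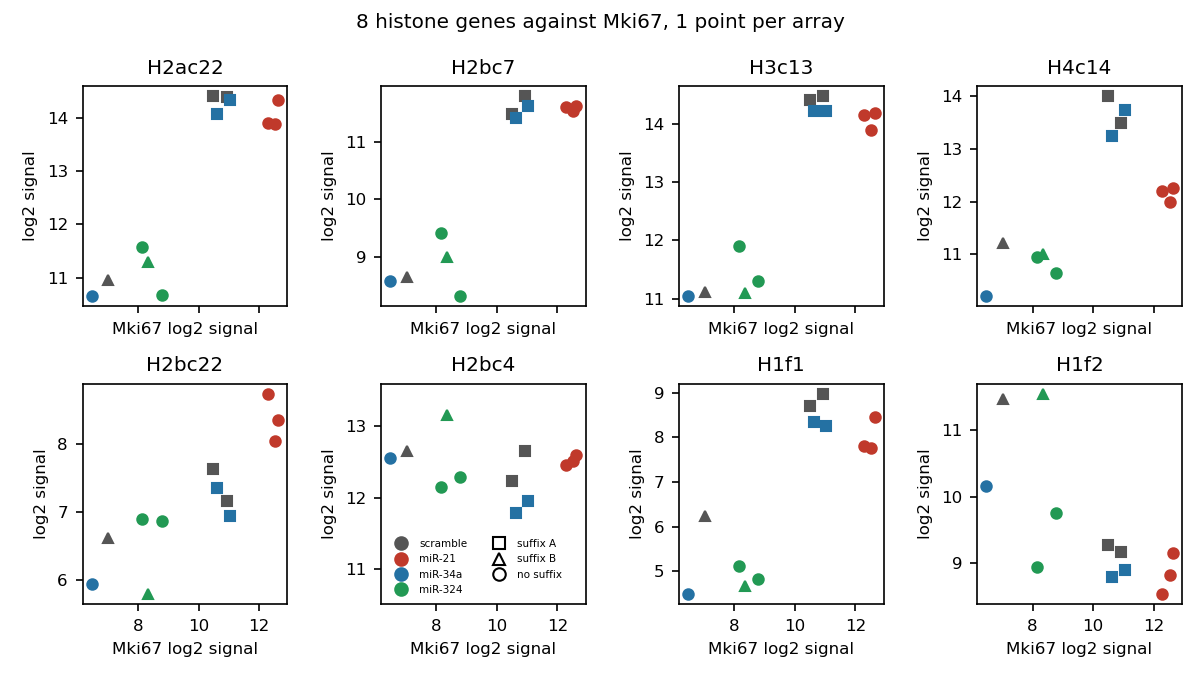
Log2 signal of 8 histone genes against the Mki67 log2 signal of the same array, 1 point for each of 12 arrays, coloured by group and shaped by label suffix. H2ac22, H2bc7, H3c13 and H1f1 separate 7 arrays from 5, H4c14 places the miR-21 arrays at 11.99 to 12.25 between the others, H2bc22 is highest in miR-21, H2bc4 overlaps and H1f2 is highest in the suffix B arrays.

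Within the 7 arrays of the higher range few histone genes were higher still where Mki67 was. Mki67 was higher in each miR-21 array (12.28 to 12.63) than in each suffix A array (10.49 to 11.04), but only 3 of 57 histone genes were higher in all 3 miR-21 arrays than in all 4 suffix A arrays, against 18.1% of all probes. These were H2bc22, H2ac6 and H1f6, but H1f6 lay under the floor level of 5.33 on every array. The probes taken as the array floor had medians of 3.81, 4.12 and 3.70 for miR-21 1, 2 and 3. Their medians were lower for scramble 1 and 2 (3.51 and 3.56) and miR-34a 1 and 2 (3.57 and 3.53). The part of this floor difference in the 18.1% was not tested. All 3 miR-21 arrays lay below all 4 suffix A arrays for 17 of 57, against 13.2% of all probes. These were 7 of 11 H4, 5 of 10 H3, 5 of 13 H2A, 0 of 15 H2B and 0 of 8 H1 genes. The widest such gap was 0.99 in H4c14, followed by 0.52 in H4c6, 0.49 in H4c2, 0.47 in H3c8 and 0.46 in H4c4. No array of miR-21 has a suffix, so miR-21 and the suffix cannot be told apart here. Cell type markers also differed between these arrays. In 6 of 6 neuron and 4 of 5 macrophage markers all 3 miR-21 arrays lay below all 4 suffix A arrays, and in 0 above. Markers of satellite glia, fibroblasts and endothelial cells went both ways, and 2 of 3 Schwann cell markers were higher in miR-21. The part of the cell types in these histone differences was not tested.

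**Figure D3:**
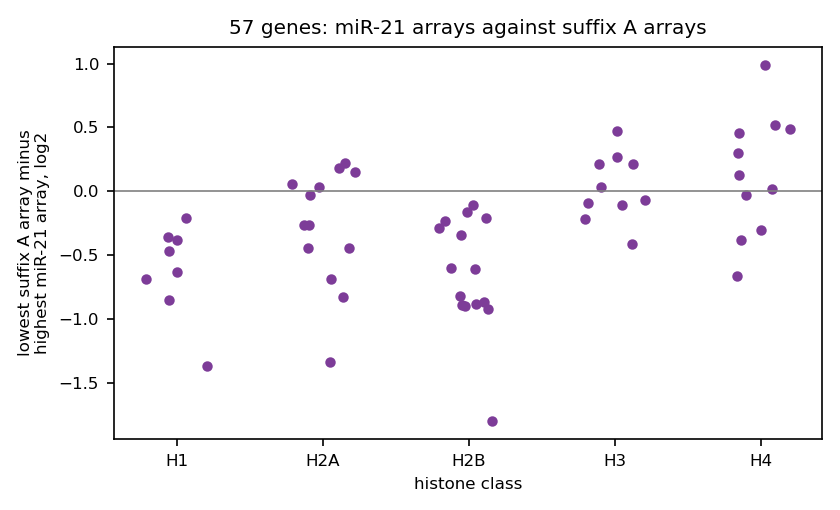
Lowest log2 signal among the 4 suffix A arrays minus the highest among the 3 miR-21 arrays, 1 point for each of 57 histone genes by class. Points above 0 are genes whose miR-21 arrays all lie below suffix A, 7 of 11 in H4 and 0 of 15 in H2B, with H4c14 highest at 0.99.

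Each miRNA was then compared with scramble over the label groups, with limma on all 19572 named probes and Benjamini-Hochberg adjustment. In miR-324, 49 of 57 histone genes had a lower mean than in scramble, with a median difference of -1.79 against 0.09 over all probes. By class the median was -2.19 in H2A, -1.55 in H2B, -1.99 in H3, -1.95 in H4 and -0.18 in H1. With limma 0 of 57 passed an adjusted p of 0.05, as did 0.0% of all probes. At an unadjusted p under 0.05, 21 passed, all lower, against 14.7% of all probes in either direction. H1f1 was 4.87 ± 0.23 (SD, n = 3) in miR-324 and 7.97 ± 1.5 in scramble, a difference of -3.10 ± 0.91 (SE) with an adjusted p of 0.309. H4c1 was 11.53 ± 0.32 and 13.57 ± 1.19, a difference of -2.04 ± 0.90 with an adjusted p of 0.329. In both genes scramble 3 lay between the other scramble arrays and the miR-324 arrays, and the groups did not overlap. H4c9 had the smallest p of the family, with 7.82 ± 0.47 against 9.27 ± 0.18, a difference of -1.45 ± 0.31 and an adjusted p of 0.309, and its groups did not overlap. Without scramble 3, 7 of 57 passed the adjusted threshold, all lower, against 1.96% of all probes in that fit.

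In miR-21, 44 of 57 had a higher mean than in scramble, with a median difference of 0.42 against 0.13 over all probes. This direction rested on scramble 3: without it the median was -0.39, with 12 genes higher and 45 lower. With array weights the median was -0.20, with 21 higher and 36 lower. With all 12 arrays weighted equally, the medians were 0.66 in H2A, 0.57 in H2B, 0.66 in H3 and 0.34 in H1, but -0.34 in H4, where 10 of 11 were lower. By limma 0 of 57 passed the adjusted threshold, against 1.04% of all probes, and 3 passed at an unadjusted p under 0.05 (2 higher, 1 lower), against 16.6%. H4c9 was 8.28 ± 0.14 against 9.27 ± 0.18, a difference of -0.99 ± 0.31 with an adjusted p of 0.144. The scramble mean includes scramble 3, so a gene that is lower in scramble 3 and at one level in miR-21 and suffix A has a positive difference here.

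In miR-34a, 53 of 57 had a lower mean than in scramble, with a median difference of -0.42 against 0.04 over all probes. The direction depended on single arrays: without miR-34a 3 the median was 0.49, with 48 genes higher and 9 lower. It was 0.025 without scramble 1, 0.0083 without scramble 2 and -1.25 without scramble 3. By limma 0 of 57 and 0.0% of all probes passed the adjusted threshold, and 2 of 57 passed at an unadjusted p under 0.05, both lower, against 1.46%. The medians by class ran from -0.77 in H4 to -0.13 in H1. H4c9 was 8.15 ± 0.59 against 9.27 ± 0.18, a difference of -1.12 ± 0.31 with an adjusted p of 0.999. These 3 comparisons share the scramble arrays.

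**Figure D4:**
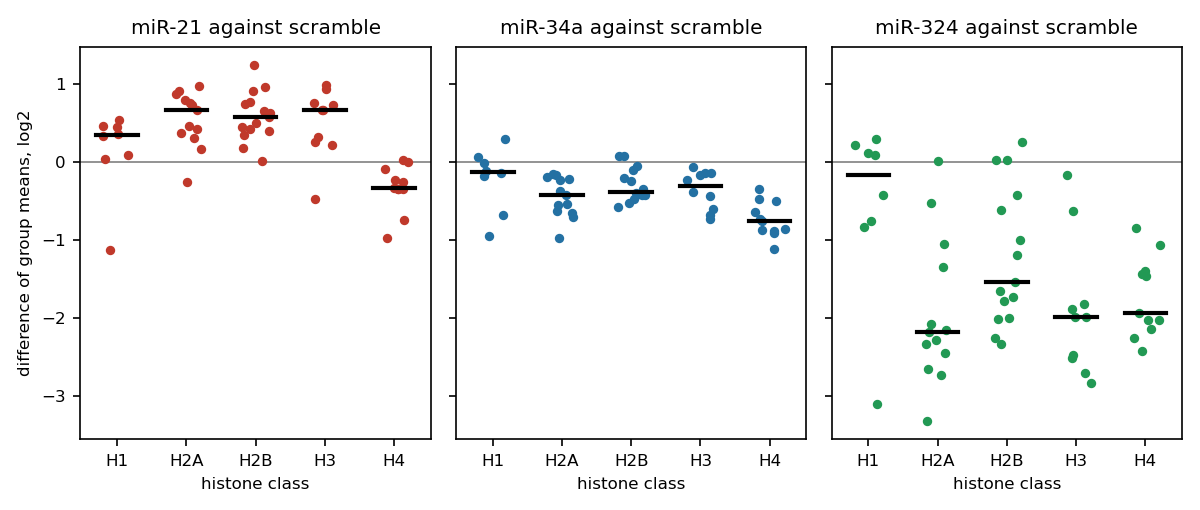
Difference of group means in log2 signal, miRNA minus scramble, 1 point for each of 57 histone genes by class, with the class median as a bar. In miR-324 the H2A, H2B, H3 and H4 medians lie between -2.19 and -1.55, in miR-34a all class medians are slightly below 0, and in miR-21 only H4 has a median below 0 (-0.34). Over all 57 genes the median turns to 0.49 for miR-34a without miR-34a 3 and to -0.39 for miR-21 without scramble 3.

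Between the miRNAs, miR-21 exceeded miR-324 in 52 of 57 histone genes, with a median of 1.91 against 0.05 over all probes, and 36 passed at an unadjusted p under 0.05, all higher, against 14.7% of all probes. After adjustment 1 of 57 passed limma, against 2.46% of all probes. This was H2bc22, an H2B gene, with 7.16, 7.62 and 6.61 for scramble, 8.04, 8.73 and 8.34 for miR-21, 6.93, 7.35 and 5.94 for miR-34a, and 6.89, 5.79 and 6.86 for miR-324. Every miR-21 array lay above the other 9. Its mean was 8.37 ± 0.35 (SD, n = 3) in miR-21 and 6.51 ± 0.63 in miR-324, a difference of 1.86 ± 0.41 (SE) or 3.62-fold, with an adjusted p of 0.0371. The call was lost when any of miR-324 2, miR-324 4 or the 3 miR-21 arrays was left out (adjusted p 0.0892 to 0.146) and with the title number as a block (adjusted p 0.0951). Against scramble the difference was 1.24 ± 0.41 with an adjusted p of 0.162. H2ac15 had the largest difference between miR-21 and miR-324, 4.30 ± 1.81, with an adjusted p of 0.290, and H1f1 differed by 3.13 ± 0.91 with an adjusted p of 0.108. Each SE rests on the spread of all 4 groups, not only of the groups compared. For H2ac15 the SD was 0.255 in miR-21 and 0.82 in miR-324, but 3.41 in scramble and 4.18 in miR-34a. In a fit of only the groups compared more histone genes passed, as given at the end.

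The miR-34a mean was lower than that of miR-21 in 54 of 57, with a median of -0.76 against -0.08 over all probes. But without miR-34a 3 the median over the histone genes was 0.14, with 39 higher and 18 lower. With all arrays 0 passed the adjusted threshold of limma, against 0.158% of all probes, while 3 passed unadjusted, all lower, against 11.3%. The miR-34a mean exceeded that of miR-324 in 48 of 57, with a median of 1.36 against -0.03 over all probes. There too 0 of 57 passed, against 0.0% of all probes, and 3 passed unadjusted, all higher, against 13.0%. Without miR-34a 3, 16 of 57 passed in that comparison, all higher, against 4.09% of all probes in that fit, and with array weights 39 passed, against 14.3%.

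Arrays with one suffix but different miRNAs were also set side by side. Within suffix A the mean of miR-34a 1 and 2 was below that of scramble 1 and 2 in 52 of 57 histone genes. The median difference was only -0.28, against -0.005 over all probes, and the histone differences ran from -0.85 to 0.44. None of the 57 reached 2-fold, against 0.307% of all probes. Within suffix B, with 1 array a group and so no replicate check, miR-324 2 minus scramble 3 had a median of 0.10. Over all probes this median was 0.03, and 25 of the 57 histone genes were lower. There 2 of 57 were at least 2-fold lower, against 2.14% of all probes, namely H1f1 with -1.58 and H1f3 with -1.14, and H2ac15 was 1.05 higher. The median of -1.79 between all miR-324 and all scramble arrays was thus not seen within suffix B, and the part of suffix and miRNA cannot be told apart.

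Other genes of histone supply were taken from lists for comparison. Of 32 measured S phase genes 20 were higher on all 7 arrays of the higher Mki67 range and 0 lower, led by Rrm2, a subunit of the enzyme that makes deoxynucleotides, with a gap of 3.07, and Uhrf1, which guides maintenance of DNA methylation, with 1.85. Of 25 mitosis genes, which include Mki67 itself, 24 were higher and 0 lower, and Bub1b was the exception. Genes that make or process histone mRNA did not share the order: 3 of 27 were higher (E2f2, E2f3 and Ccne1) and 2 lower (Zfp473 and Tut7). E2f3 separated by only 0.03. Zfp473 separated by 0.07 and lay under the floor level of 5.33 on every array but miR-324 2, so its order says little. Slbp, the stem-loop binding protein, stayed between 9.40 and 9.83, and Npat between 10.32 and 11.49. Of 25 histone chaperones 3 were higher (Chaf1b and Asf1b, which act in replication-coupled deposition, and Hjurp, the chaperone of Cenpa) and 2 lower (Ubn1 and Daxx). Of 12 cyclin-dependent kinase inhibitors and quiescence genes 1 was higher (Cdkn2c) and 2 lower (Btg1 and Btg2). Gaps were also narrow in Ubn1 (0.02), Daxx (0.05) and Cdkn2c (0.06).

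The core histone variants listed as replication-independent mostly did not have this order. Whether each of them is made outside S phase was not tested. Of 11 measured, H2ax and Cenpa were higher on the 7 arrays and 0 were lower. H2bu2 (3.33 to 4.39) lay under the array floor throughout and H4f16 (3.87 to 5.52) lay near it. Their overlap therefore says little. H2ax, which marks DNA breaks when phosphorylated, was 11.95, 12.27 and 9.10 for scramble, 11.69, 11.52 and 12.19 for miR-21, 12.05, 11.65 and 9.21 for miR-34a, and 10.31, 9.35 and 9.39 for miR-324. It had the same array order as most replication-dependent genes. H3f3b, which encodes the replacement histone H3.3, was 13.23 to 13.95 on the 7 arrays and 13.59 to 14.99 on the 5, and H2az1 was 12.68 to 13.79 and 12.44 to 12.89. Both overlapped.

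**Figure D5:**
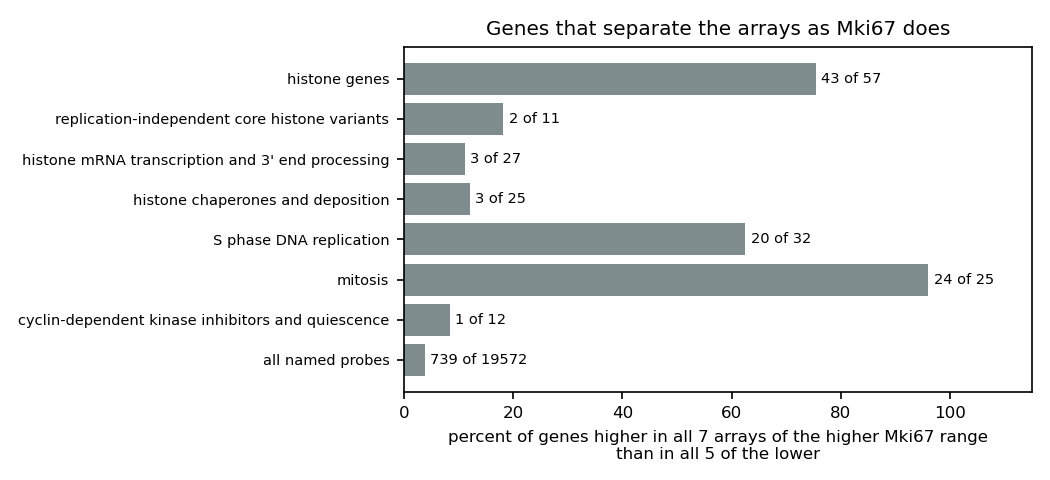
Percent of genes in each list that were higher on all 7 arrays of the higher Mki67 range than on all 5 of the lower, with the count beside each bar. The histone genes reach 43 of 57, the mitosis list 24 of 25 and S phase 20 of 32, while histone mRNA processing reaches 3 of 27 and all named probes 739 of 19572.

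By limma these lists had calls only between miR-21 and miR-324, where 2.46% of all probes were called, with 0 in each of the other 5 comparisons. Few probes of any kind were called in those 5. The share was 1.04% for miR-21 against scramble, 0.158% for miR-34a against miR-21 and 0.0% in the rest, so the absence of list calls there says little. There Hat1 (1.20) and Nap1l1 (0.99) of the chaperones were higher in miR-21, as were Mcm4 (2.09), Gins2 (1.74) and Dnmt1 (1.52) of S phase. Kif23 (2.53), Aurka (2.21) and Cenpf (1.75) of mitosis and the inhibitor Cdkn2c (1.59) were also higher, and Btg1 was lower (-1.26). These are log2 differences with adjusted p of 0.010 to 0.049.

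The genes outside the family whose signal was most like the mean of the 50 replication-dependent histone genes above the floor were Cenpa, Ccnb2, Lrrn1, Pdgfrb, Bub1 and Pbk. Their Pearson r over the 12 arrays was 0.98 in each, given as a description, since the arrays share groups, suffixes and normalization. The arrays also form separate clusters, so a high r can follow from the split between them alone. It does not show likeness within a cluster, which was not tested. Cenpa, Ccnb2, Bub1 and Pbk act in centromeres or mitosis. Pdgfrb, a growth factor receptor of mural cells and fibroblasts, was 12.86, 13.50 and 9.76 for scramble, 12.19, 12.02 and 12.39 for miR-21, 13.51, 12.68 and 8.96 for miR-34a, and 10.18, 9.69 and 9.88 for miR-324. Lrrn1, a neuronal leucine-rich repeat protein, spanned 8.20 to 13.36 in the same order.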

How the data were processed

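The deposited values are log2 signals that the authors made with Transcriptome Analysis Console 4.0 and RMA, per the submitters' processing notes. This method corrects background, gives all arrays one distribution and summarises each gene, so it removes changes in total signal and compresses differences near the floor. Array medians were 5.91 to 6.06. A platform table named 19572 of 22206 probes with 1 symbol each, and the others were not used here. The labels do not say that arrays of a group are separate cultures, so p-values measure only a spread among samples that may be technical.

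Group means of all 12 arrays were fitted with limma 3.58.1 in R 4.3.3 (8 residual degrees of freedom), 2-sided, with Benjamini-Hochberg adjustment over 19572 probes and a threshold of 0.05. The fit was tested on simulated data, where it found 193 of 200 changed genes. There the noise was independent between arrays and its SD was capped, so the test does not cover arrays that cluster across groups as here. Counts and ranges were made in Python 3.11.15.

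Members, lists and tests were chosen with earlier results of these data known. Named by rule were the linker histones, the 3 brightest genes on average of each other class, members past the threshold, up to 4 called genes of each list and the 6 genes most like the family. H2ac15, H2ac6, H3c6, H4c9 and other single examples were added after their values were seen. No paired design was used, since arrays of one title number had deviations correlated at -0.41 to 0.36. Alternatives were other scaling, probe filters, variance models, blocks, an Mki67 covariate and leaving out arrays.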

Additional observations from a re-analysis of the deposited data

How the results depend on the processing

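The count of 43 histone genes that separated the arrays as Mki67 does was 40 to 47 under requantiling, centring and leaving out miR-34a 3, the suffix B arrays or the miR-21 arrays, all added after seeing the data. The count of 17 genes lower in miR-21 than in suffix A was 16 to 21 under both scalings. The numbers called between groups moved far more, and each is given with the share of all probes called in the same fit. For miR-21 against scramble (0) array weights gave 2 (12.2%), only the groups compared 1 (4.63%), the suffix as a fixed block 35, all higher (3.49%), an Mki67 covariate 29, all lower (13.5%), and an unadjusted p with a 2-fold difference 1 (7.26%). For miR-34a against scramble (0) the last rule gave 1 (0.163%). For miR-324 against scramble (0) array weights gave 42 (13.2%), the Mki67 covariate 4 (0.485%) and the unadjusted rule 21 (5.86%), all lower, and leaving out 1 array gave 0 to 7 (1.96% for the 7). For miR-34a against miR-21 (0) array weights gave 1 (11.0%), the fixed suffix block 44, all lower (5.13%), the Mki67 covariate 25, all higher (7.41%), and the unadjusted rule 1 (3.72%). For miR-21 against miR-324 (1) array weights gave 36 (9.14%), only the groups compared 38 (5.33%), the fixed suffix block 41 (6.92%), the random suffix block 8 (4.1%), the unadjusted rule 33 (7.16%), all higher, no suffix B arrays 0 (2.59%) and leaving out 1 array 0 to 2 (2.05% for the 2). For miR-34a against miR-324 (0) array weights gave 39 (14.3%) and the unadjusted rule 3 (4.43%), and leaving out 1 array gave 0 to 16 (4.09% for the 16). The replicate block on the title number gave 0 in each of the 6 comparisons.

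The median over the histone genes changed sign in every comparison under some setting. For miR-21 against scramble it was -0.20 with array weights, -0.39 without scramble 3 or the suffix B arrays and -1.46 with the Mki67 covariate. For miR-34a against scramble it was 0.025, 0.0083 and 0.49 without scramble 1, scramble 2 and miR-34a 3. For miR-34a against miR-21 it was 0.046 with array weights, 0.14 without miR-34a 3 and 1.21 with the Mki67 covariate. For miR-324 against scramble and for miR-34a against miR-324 it was 0.20 and -0.50 with the fixed suffix block, and for miR-21 against miR-324 it was -0.49 with the Mki67 covariate. Differences in single genes were followed through the settings only for chosen genes, not for the whole family, and 6 of those differences also changed sign. With the fixed suffix block, miR-324 minus scramble was 0.30 in H2ac22, 0.27 in H2bc7 and 0.27 in H4c1 (-2.08, -1.73 and -2.04 without the block). With the Mki67 covariate, miR-21 minus miR-324 was -0.061 in H1f1, -0.19 in H2bc7 and -2.11 in H2ac15 (3.13, 2.68 and 4.30 without it). All miR-21 arrays lack a suffix, so a suffix block rests on miR-34a 3 and miR-324 1 and 4. The cause of these changes was not tested. Mki67 correlations were not computed in any setting because the arrays form clusters, and taking the lowest probe of a gene was not run because no histone gene has more than 1. With 3 arrays a group, and signals near the floor in H1f1 and others, small differences could not be resolved.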
